A study of Mus musculus with 69 samples.

Results

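Kidneys of young NZB/W F1 mice were compared before and at the moment when the lights came on. NZB/W F1 is a hybrid mouse strain that develops lupus nephritis with age, and the young mice, aged 12 weeks, were studied ahead of that disease. The comparison holds the 8 young libraries whose labelled times were ZT20 and ZT0 and whose titles begin with ZT, without repeat libraries, out of 69 libraries in the series. Zeitgeber time (ZT) counts hours from lights on, so 4 mice were taken at ZT20, in the dark, and 4 at ZT0, as the lights came on, with lights off at ZT12. All mice carried the same genotype and had no treatment in the labels, and RNA came from whole kidneys perfused with buffer. The other young mice whose titles begin with ZT, 16 at ZT4, ZT8, ZT12 and ZT16 without repeats, served to estimate the spread between mice and to place the step in the day. Nephritic NZB/W mice aged 30 to 45 weeks, taken 2 to 3 weeks after protein appeared in the urine, 3 at ZT20 and 4 at ZT0, gave the same step in diseased kidneys.

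The circadian clock is a loop of transcription factors found in nearly every cell. BMAL1 (Arntl) with CLOCK or NPAS2 switches on genes that carry E-box letters, among them the Per and Cry genes, whose proteins return to the nucleus and repress BMAL1 and CLOCK. A second arm joins REV-ERB (Nr1d1, Nr1d2), which represses Arntl, to the ROR factors, which activate it, and in the kidney the clock times the transport of salt, water and organic solutes and blood pressure. Mice are active and feed mostly in the dark, so the step from ZT20 to ZT0 leads from late activity into rest.

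Between ZT20 and ZT0 the kidney lost transcripts of the clock repressors Cry1, Per2, Per3 and Cry2 and gained those of Nr1d1 and Nr1d2. Chaperones of the endoplasmic reticulum, Hspa5, Hyou1 and Dnajb9 among them, fell 1.68-fold, 1.67-fold and 1.67-fold. Pdk4, which spares glucose when fat is burned, fell as well, a call that held in 11 of 19 alternatives. Genes of creatine, polyamine and amino acid handling, Gatm, Odc1, Slc3a2 and Slc7a7, rose. Of 16267 genes tested with edgeR's quasi-likelihood test, 842 passed a Benjamini-Hochberg adjusted p of 0.05, which is 5.18% of them. Of these, 385 were higher at ZT0 (2.37% of all tested) and 457 were lower (2.81%). Most changes were small, with a median log2 change of 0.36 among the genes that rose and -0.44 among those that fell, and 12 genes rose and 54 fell by at least 2-fold. The 4 values of ZT0 lay wholly apart from the 4 of ZT20 in 743 of the 842 genes, and in 12.3% of all genes tested.

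Library totals ran from 30686035 to 33493416 counts at ZT20 and from 27338806 to 29915407 at ZT0, and 3 counts correspond to at most 0.110 CPM. CPM are counts relative to the library total after TMM scaling, and they are not corrected for gene length, so levels are compared within a gene only. Markers of kidney tubules were high in all 8 libraries, the 6 proximal tubule markers summing to between 9191 and 10738 CPM. Of the 5 red blood cell markers, the 4 globin genes were at 0 in all 8, while Alas2 was at 0.477 to 2.63 CPM. Whether the zeros came from blood content or from the counting of reads was not tested. Adrenal transcripts stood in 1 library of each time point. The 10 adrenal markers summed to 636 CPM in ZT20 replicate 3 and to 389 CPM in ZT0 replicate 1, against at most 8.31 CPM in the other 6, and none of the 10 was called. Adipocyte markers summed to between 268 and 713 CPM at ZT20 and between 132 and 446 CPM at ZT0, and none of the 8 was called. Without the libraries with adrenal transcripts, an alternative chosen after seeing the data, 284 genes passed, 247 of them among the 842. With the 8 libraries fitted alone, 97 passed, 94 of them shared. Leaving out 1 library gave 413 genes without ZT0 replicate 2, 444 without replicate 4, 448 without replicate 1 and 532 without replicate 3, 551 without ZT20 replicate 3, and 567 to 863 without any of the other 3. In whole kidney, fewer cells of a type and less RNA per cell cannot be told apart.

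Of 10 clock repressors tested, 5 fell, 2 rose and 3 did not pass, so 70% were called against 5.18% of all genes. Cry1, a cryptochrome that blocks BMAL1 and CLOCK, stood at 29.5, 30.5, 30.2 and 29.8 CPM in the 4 ZT20 mice and at 7.94, 8.09, 10.01 and 10.1 CPM in the 4 ZT0 mice. The groups lay far apart and the mice of each time point close together. The mean went from 30.0 ± 0.465 to 9.03 ± 1.17 CPM (SD, n = 4 each; edgeR log2 change -1.73, SE 0.08, adjusted p = 4.08e-12). Per2, a period protein, was 26.6, 39.2, 32.1 and 34.5 CPM at ZT20 and 13.6, 12.1, 14.2 and 14.3 CPM at ZT0, again with no overlap. It fell 2.44-fold (log2 change -1.29, SE 0.10, adjusted p = 3.12e-08, edgeR). Another set of young ZT0 mice stood higher for Cry1 and Per2, and its values are given with the folding genes. Per3 was 14.4, 16.3, 14.7 and 16.2 CPM at ZT20 and 10.9, 10.7, 7.54 and 8.41 CPM at ZT0. Its groups did not overlap, and the fall was smaller (log2 change -0.71, SE 0.11, adjusted p = 0.00075, edgeR). Cry2, the second cryptochrome, was 35.4, 36.6, 32.6 and 36.0 CPM at ZT20 and 24.5, 20.8, 20.8 and 21.0 CPM at ZT0, and fell 1.62-fold (log2 change -0.69, SE 0.06, adjusted p = 1e-06, edgeR). Bhlhe41, an E-box repressor, was low throughout, at 3.88 to 5.57 CPM and then 2.86 to 3.20 CPM, and passed with edgeR's adjusted p = 0.0274. It no longer passed without ZT20 replicate 3, its highest value (log2 change -0.38, adjusted p = 0.0942), nor without ZT0 replicates 1, 2 or 4, and kept its call in 12 of 19 alternatives.

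The REV-ERB genes went the other way. Nr1d1, which encodes REV-ERB alpha, was 6.79, 7.37, 8.9997 and 8.40 CPM at ZT20 and 16.6, 17.8, 15.6 and 17.2 CPM at ZT0. Every ZT0 mouse was above every ZT20 mouse, and the rise was 2.13-fold (edgeR log2 change 1.09, SE 0.12, adjusted p = 1.58e-05). Nr1d2 was 23.8, 21.9, 32.6 and 22.3 CPM at ZT20 and 38.4, 39.3, 34.3 and 36.3 CPM at ZT0, where ZT20 replicate 3 came close to the ZT0 values without reaching them (log2 change 0.56, SE 0.10, adjusted p = 0.00292, edgeR). Per1, another period gene, was 31.3, 27.1, 50.1 and 97.1 CPM at ZT20 and 43.3, 30.2, 32.1 and 57.2 CPM at ZT0. A single mouse stood high at ZT20, the groups overlapped, and the change did not pass (edgeR adjusted p = 0.589). Bhlhe40 overlapped as well (adjusted p = 0.113, edgeR). Ciart, low at 1.37 and 0.816 CPM, had separate groups but missed the threshold (adjusted p = 0.0595, edgeR), and passed narrowly with DESeq2 and limma.

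**Figure D1:**
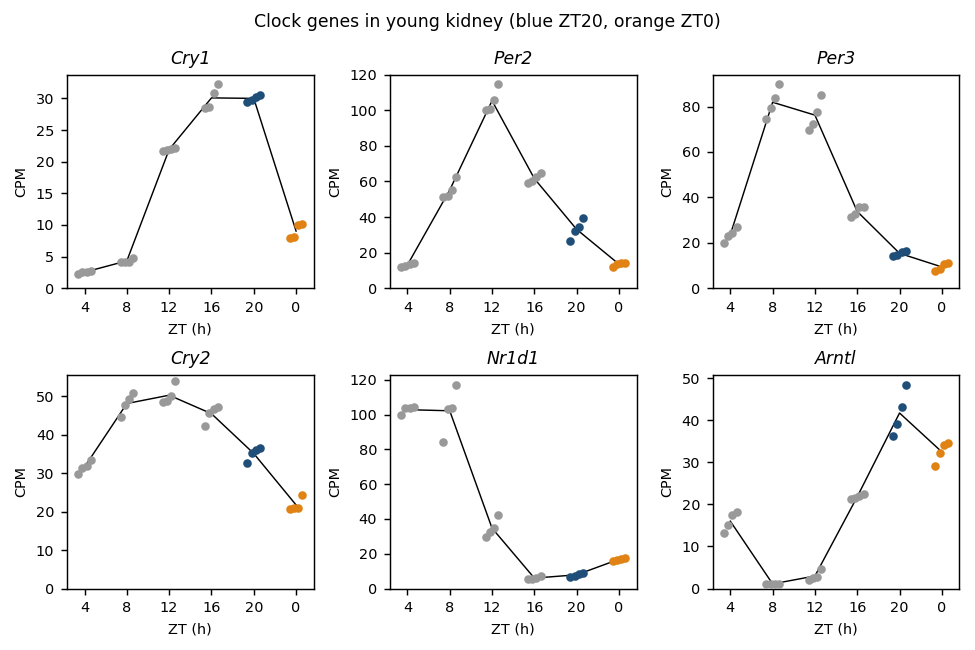
CPM of 6 clock genes in young kidney by Zeitgeber time, which starts at ZT4 on the x axis so that ZT20 and ZT0 stand side by side. Each point is 1 mouse (4 per time point, spread sideways by value) and the line joins the means. Cry1 drops between ZT20 and ZT0, Per2, Per3 and Cry2 end a fall from their highs at ZT12, ZT8 and ZT12, Nr1d1 starts the rise that reaches 103 CPM at ZT4, and Arntl keeps most of its level.

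Among the activators, Arntl, Clock, Npas2 and Rora did not pass the test. Arntl was 39.1, 36.3, 48.5 and 43.1 CPM at ZT20 and 32.2, 29.0, 34.1 and 34.7 CPM at ZT0. All ZT0 mice lay below all ZT20 mice, but the change did not pass (log2 change -0.36, SE 0.14, adjusted p = 0.141, edgeR). Clock, Npas2 and Rora had overlapping groups and log2 changes of -0.13, -0.25 and -0.29, with edgeR adjusted p of 0.527, 0.264 and 0.12. Rorb was under the count minimum and was not tested. Another activator was tested and counts in the totals, and it is not reported here. Arntl, Clock and Npas2 had their highest mean of the day at ZT20, with Arntl at 41.7 CPM there and 32.5 CPM at ZT0 against 1.10 CPM at ZT8.

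Of the 4 D-box factors, which bind the D-box and carry the clock's time to output genes, 1 fell and 3 did not pass. That is 25% of a list of 4, against 5.18% of all genes. Tef went from 214, 215, 203 and 197 CPM to 180.5, 167, 160.1 and 158 CPM, with separate groups (log2 change -0.32, SE 0.06, adjusted p = 0.00307, edgeR). Dbp was near its daily low at both times, 4.11 to 6.04 CPM at ZT20 and 2.40 to 5.33 CPM at ZT0, against 210.4 CPM at ZT8, and did not pass (edgeR adjusted p = 0.207). Hlf did not pass (adjusted p = 0.0817, edgeR) and passed with DESeq2 (adjusted p = 0.0466), and Nfil3, the repressor at the same element, was 39.8 and 38.8 CPM (adjusted p = 0.921, edgeR). None of the 7 genes of clock protein turnover passed, Csnk1d, a kinase of PER proteins, among them (log2 change 0.11), while 3 of the 7 had an unadjusted p under 0.05 in edgeR, as did 22.1% of all genes tested, and the smallest adjusted p was 0.104.

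Promoter letters were read from RefSeq windows on GRCm38.p6 that run from 250 bases before to 50 after each start, on both strands. Windows were found for 8 of the 10 repressors, for 5 of the 6 activators and for all 4 D-box factors. Of these repressors, Cry1, Per1, Bhlhe41 and Ciart held the E-box CACGTG, as did Tef, against 8.09% of all genes with a window. Per3 held the D-box TTATGTAA at 2 places, against 1.11% of all genes with any. The ROR element TAGGTCA stood in a window of Arntl and in that of Nfil3, against 2.97% of all genes. The stretches of Cry1 and Per3, a repressor of each motif that fell, are shown 5′ to 3′ on the strand of the gene, with the motif letters in capitals.
Cry1, chr10:85185055-85185174, minus strand, 120 to 1 bases before the start, E-box at -60: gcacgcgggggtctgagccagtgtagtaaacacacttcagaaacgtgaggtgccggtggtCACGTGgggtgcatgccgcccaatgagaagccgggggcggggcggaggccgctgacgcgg
Per3, chr4:151044786-151044905, minus strand, 240 to 121 bases before the start, D-box at -205 and -158: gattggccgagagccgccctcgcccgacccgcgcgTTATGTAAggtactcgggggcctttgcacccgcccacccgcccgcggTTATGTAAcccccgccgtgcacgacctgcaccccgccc

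Several chaperones and folding enzymes of the endoplasmic reticulum (ER) fell. They belong to the unfolded protein response, the programme in which ATF6, IRE1 with XBP1, and PERK with ATF4 raise folding capacity when unfolded protein builds up in the ER. Of 22 genes listed, 7 fell, none rose and 15 did not pass, and the median log2 change was -0.28 against -0.01 over all genes tested. The called share was 31.8% of the list, against 5.18% of all genes. Hspa5, which encodes BiP, the main ER chaperone, was 738, 815, 596 and 783 CPM at ZT20 and 366, 427, 471 and 475 CPM at ZT0. The groups were separate, and the fall was 1.68-fold (log2 change -0.75, SE 0.10, adjusted p = 0.000334, edgeR). Dnajb9, a co-chaperone of BiP, was 61.8, 63.4, 68.1 and 52.0 CPM at ZT20 and 35.4, 38.2, 35.5 and 38.0 CPM at ZT0 (log2 change -0.74, SE 0.08, adjusted p = 1.58e-05, edgeR). Hyou1, a large ER chaperone, was 127, 147, 139 and 167 CPM and then 79.9, 90.4, 88.5 and 87.4 CPM (log2 change -0.74, SE 0.10, adjusted p = 0.000253, edgeR). Xbp1, the transcription factor of the IRE1 branch, was 176, 187, 155 and 180.04 CPM and then 112, 130.3, 133 and 115 CPM (log2 change -0.51, SE 0.07, adjusted p = 0.000334, edgeR). In these 4 genes no ZT0 mouse reached any ZT20 mouse.

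Manf, a small ER protein that is also secreted, was 143, 156, 75.9 and 137 CPM at ZT20 and 63.7, 77.0, 81.1 and 74.2 CPM at ZT0. ZT20 replicate 3, the library with the most adrenal transcript, lay inside the ZT0 range, and the other 3 lay well above it (log2 change -0.79, SE 0.16, adjusted p = 0.00723, edgeR). Creld2, an ER protein that works with disulfide isomerases, was 51.1, 56.8, 30.5 and 54.3 CPM and then 31.6, 32.5, 36.1 and 34.7 CPM, with ZT20 replicate 3 below every ZT0 mouse (adjusted p = 0.0392, edgeR), and Pdia4, a disulfide isomerase, fell by 0.41 on the log2 scale (adjusted p = 0.00782, edgeR). Without the libraries with adrenal transcripts the log2 change was -0.77 for Hspa5 and -0.91 for Manf, both past the threshold, and the count of 7 was the same. Atf4 and Ddit3, of the branch of PERK and ATF4, overlapped between the groups, with log2 changes of 0.19 and -0.16 (edgeR adjusted p of 0.331 and 0.649). Eif2ak3, which encodes PERK itself and is not among the 7, was called lower, with a log2 change of -0.43. Calr and Pdia6, a chaperone and an isomerase of the same compartment, had log2 changes of 0.04 and -0.03 and did not pass.

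Of 20 genes of this list with a promoter window, 7 held the ER stress element, CCAAT and CCACG parted by 9 bases of any kind, on either strand, against 0.137% of all genes with a window. They were Hspa5, Hsp90b1, Pdia6, Calr, Canx, Creld2 and Dnajc3. Hspa5 and Creld2 fell, and the other 5 did not pass the test. This motif was added to the search after the data had been seen. The stretches of the pair that fell are shown with the element in capitals.
Hspa5, chr2:34771970-34772089, plus strand, 120 to 1 bases before the start, element at -65: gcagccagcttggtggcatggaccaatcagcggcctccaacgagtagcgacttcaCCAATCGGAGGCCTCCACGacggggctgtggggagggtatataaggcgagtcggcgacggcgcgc
Creld2, chr15:88819506-88819625, plus strand, 140 to 21 bases before the start, element at -126 on the opposite strand: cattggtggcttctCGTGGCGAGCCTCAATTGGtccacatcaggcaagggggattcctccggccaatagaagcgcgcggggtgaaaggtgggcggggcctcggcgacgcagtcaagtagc

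The 7 unfolded protein response genes that fell in young kidney were Hspa5, Hyou1, Dnajb9, Xbp1, Manf, Creld2 and Pdia4. In nephritic kidney all 7 had a log2 change above 0 across the same step, and the young and nephritic steps differed in each. On a common scale over all 57 young and nephritic libraries, Hspa5 was 477, 410.1 and 447 CPM in the 3 nephritic ZT20 mice and 456, 1168, 844 and 1415 CPM in the 4 nephritic ZT0 mice, where the young mice were 784, 859, 627 and 824 CPM and then 388, 451, 499.9 and 515 CPM. Nephritic ZT0 replicate 1 lay among the nephritic ZT20 values, and the other 3 lay above them. The nephritic step was 1.10 on the log2 scale (adjusted p = 0.00873, edgeR) and the difference between the steps passed edgeR's interaction test (difference -1.86, SE 0.30, adjusted p = 0.00115). Xbp1 was 152, 137 and 145 CPM and then 164, 208, 217 and 207 CPM in nephritic mice, with no overlap, and its steps differed (difference -0.95, SE 0.14, adjusted p = 0.000341, edgeR). Dnajb9 was 52.6, 43.2 and 54.1 CPM and then 56.8, 82.8, 67.7 and 96.4 CPM (difference -1.32, SE 0.19, adjusted p = 0.000341, edgeR), and Manf was 88.6, 56.0 and 81.7 CPM and then 109.9, 220.5, 173 and 292 CPM (difference -2.16, SE 0.33, adjusted p = 0.000453, edgeR). For both, every nephritic ZT0 mouse stood above every nephritic ZT20 mouse.

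The level at ZT0 varied between sets of mice. The sets were taken from the titles, with libraries titled CR, CRS or HIL put apart from the rest. The 3 young ZT0 libraries titled CR stood at 601, 1495 and 1001 CPM for Hspa5 and 142, 246 and 186 CPM for Xbp1, all above the 4 young ZT0 mice compared here. For Hspa5, 2 of the 3 also lay above all young ZT20 mice. The 3 nephritic ZT0 libraries of that set, titled CRS, were 748, 455 and 581 CPM for Hspa5, 52.4, 42.5 and 63.3 CPM for Dnajb9, 177, 144 and 189.6 CPM for Xbp1 and 165, 92.5 and 127 CPM for Manf. For Hspa5 and Xbp1, 1 of the 3 lay within the range of the nephritic ZT20 mice, and for Dnajb9 1 lay within it and 1 below it, while all 3 lay above it for Manf. With the young CR libraries in the fit and the set as a covariate, 2 of the 22 genes were called lower, Hspa5 had a log2 change of -0.53 (adjusted p = 0.126, edgeR), and Dnajb9 and Xbp1 passed (adjusted p of 0.0123 and 0.0213). With ZT20 and ZT0 fitted alone, no gene's step differed between young and nephritic mice in edgeR (925 genes at an unadjusted p under 0.05), with differences as large as before, -1.85 for Hspa5, -2.16 for Manf and -0.95 for Xbp1. With the set covariate none differed either (999 genes at an unadjusted p under 0.05), and the differences were smaller, -1.03 for Hspa5, -0.81 for Hyou1 and -0.63 for Xbp1. DESeq2 called 68 genes.

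**Figure D2:**
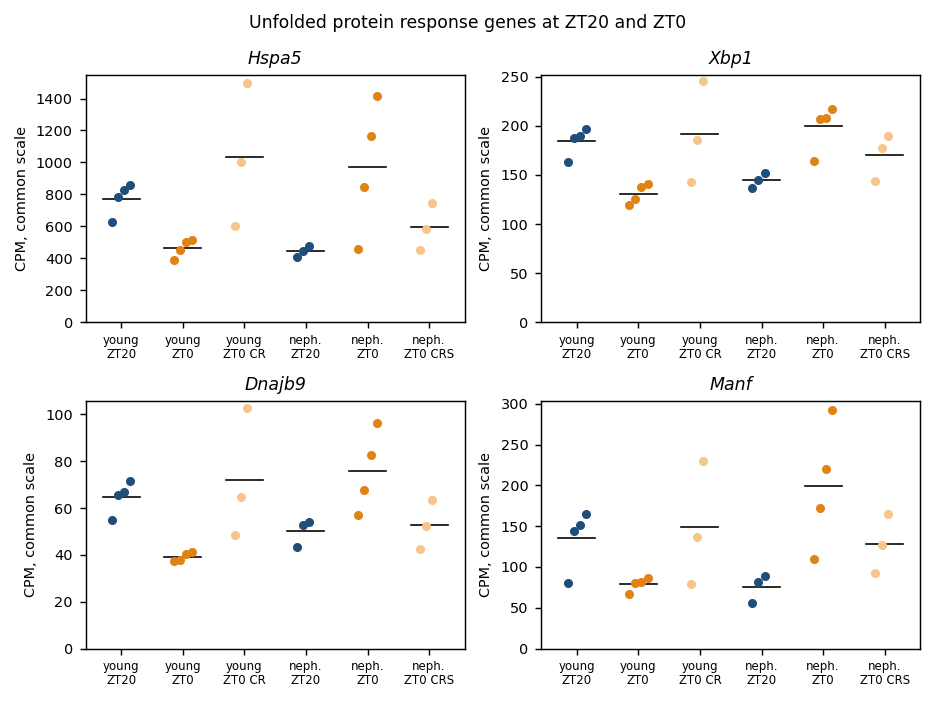
CPM of 4 unfolded protein response genes on a scale common to all 57 young and nephritic libraries, each point 1 mouse and each bar the group mean. CR and CRS are ZT0 libraries put in another set by their titles, 3 young and 3 nephritic. In the mice compared here the young ZT0 points lie below the young ZT20 points, apart from 1 ZT20 mouse in Manf, while the CR points of young mice reach as high as 1495 CPM for Hspa5.

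Genes of fat oxidation and ketone synthesis, targets of the nuclear receptor PPAR alpha that rise in fasting, gave falls only. Of 23 tested, 4 fell, none rose and 19 did not pass, with a median log2 change of -0.29. The called share was 17.4%, against 5.18% of all genes. Pdk4, which shuts pyruvate out of the citric acid cycle, was 38.6, 44.2, 46.7 and 44.0 CPM at ZT20 and 19.2, 22.3, 26.3 and 24.9 CPM at ZT0, with clear separation (log2 change -0.90, SE 0.23, adjusted p = 0.0271, edgeR). The 3 young ZT0 libraries titled CR stood at 50.4, 31.7 and 109 CPM on the common scale, where the ZT20 mice were 41.1, 46.6, 49.1 and 46.3 CPM, and with the set as covariate the log2 change was -0.55 and did not pass (adjusted p = 0.374, edgeR). Ppargc1a, a coactivator of mitochondrial genes, went from 90.0 ± 12.0 to 73.7 ± 4.81 CPM (SD, n = 4 each) with edgeR's adjusted p = 0.046, and kept its call in 8 of 19 alternatives. Without the libraries with adrenal transcripts, 1 of the 4 was called, and neither Pdk4 nor Ppargc1a was.

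Of 18 carriers and enzymes of amino acids, creatine and polyamines tested, 3 rose, 1 fell and 14 did not pass. The calls were 22.2% of the list, against 5.18% of all genes. Slc3a2, the heavy chain shared by several amino acid exchangers, was 217, 217, 246 and 247 CPM at ZT20 and 339, 337, 330.1 and 415 CPM at ZT0, with no overlap (log2 change 0.62, SE 0.09, adjusted p = 0.000858, edgeR). Gatm, the first enzyme of creatine synthesis, was 925, 831, 1032 and 819 CPM and then 1427, 1447, 1247 and 1904 CPM (log2 change 0.74, SE 0.16, adjusted p = 0.0103, edgeR). Odc1, the rate-limiting enzyme of polyamine synthesis, was 414, 412, 391 and 372 CPM and then 566, 635, 541 and 733 CPM (log2 change 0.64, SE 0.13, adjusted p = 0.00825, edgeR). In both genes ZT0 replicate 4 was the highest of the 8 mice. Slc6a6, the taurine carrier, fell from 408, 365, 663 and 441 CPM to 357, 281, 337 and 328 CPM (log2 change -0.53, SE 0.15, adjusted p = 0.0399, edgeR). ZT20 replicate 3 stood high there, without it the log2 change was -0.31 with an adjusted p of 0.151, and the call held in 11 of 19 alternatives.

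Of 21 proximal tubule transport genes, 3 rose and none fell, 14.3% of the list against 5.18% of all genes. Slc7a7, the light chain that pairs with Slc3a2 to export basic amino acids, was 116, 128, 228 and 129 CPM at ZT20 and 256, 230.3, 253 and 307 CPM at ZT0. ZT20 replicate 3 fell just short of the lowest ZT0 mouse, and the other 3 stood far below (log2 change 0.80, SE 0.19, adjusted p = 0.0215, edgeR). Slc34a3, a sodium phosphate cotransporter, was 63.7, 56.1, 72.8 and 60.8 CPM and then 85.4, 82.9, 80.5 and 110.1 CPM (log2 change 0.50, SE 0.12, adjusted p = 0.0196, edgeR). Among all 310 solute carrier genes tested, 12 were called higher and 17 lower, 9.35% together. Of the sterol and fatty acid genes, 1 of 26 passed, 3.85% of the list and under the share of all genes, and it rose. Of 20 glucose metabolism genes, Pdk2, a pyruvate dehydrogenase kinase, rose (edgeR log2 change 0.26, SE 0.07, adjusted p = 0.0377) and Pfkfb2, which makes the activator of phosphofructokinase, fell (log2 change -0.24, SE 0.07, adjusted p = 0.0365, edgeR), and both calls were lost without the libraries with adrenal transcripts. These calls made up 10% of that list. Pck1, the entry enzyme of gluconeogenesis, was abundant and varied widely between mice, 3404 to 5761 CPM at ZT20 and 2703 to 4853 CPM at ZT0 (adjusted p = 0.429, edgeR).

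**Figure D3:**
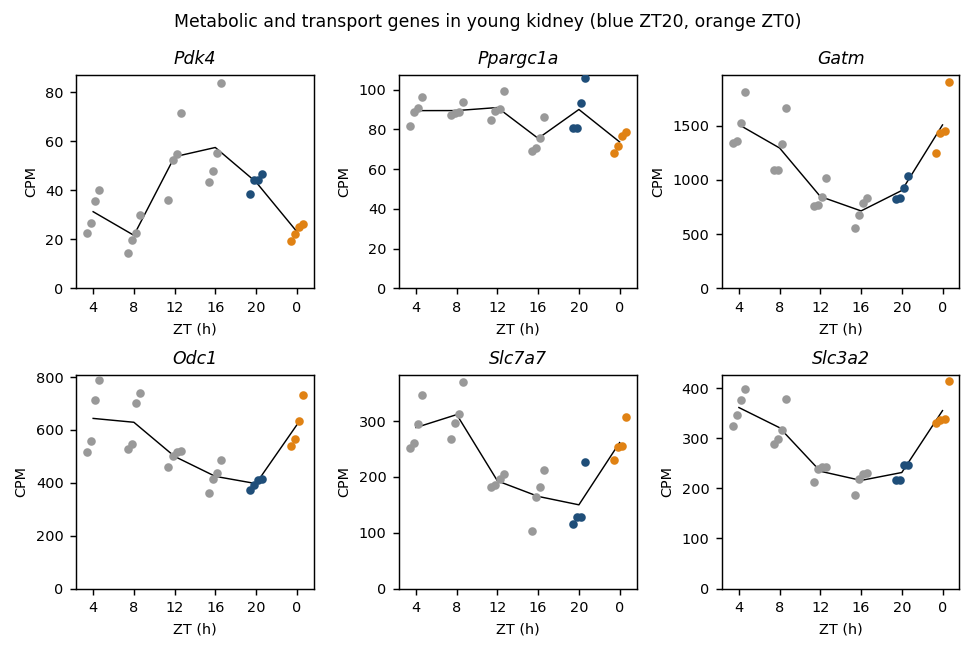
CPM of 6 metabolic and transport genes in young kidney by Zeitgeber time, drawn as for the clock genes, with ZT20 and ZT0 side by side at the right. Pdk4 is highest at ZT16 and drops between ZT20 and ZT0, Ppargc1a changes less, and Gatm, Odc1, Slc7a7 and Slc3a2 step up between ZT20 and ZT0 to near their level at ZT4.

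Blood pressure genes moved in part. Of 16 tested genes of the renin-angiotensin, endothelin and prostaglandin systems, 1 rose and 2 fell, 18.8% of the list against 5.18% of all genes. Agtrap, a protein that binds the angiotensin receptor and lowers its signal, was 69.3, 78.3, 82.7 and 80.5 CPM at ZT20 and 112, 114, 101 and 114 CPM at ZT0, with no overlap (log2 change 0.51, SE 0.09, adjusted p = 0.00373, edgeR). Ednrb, the endothelin B receptor, went from 29.0, 25.0, 39.1 and 31.2 CPM to 18.5, 17.7, 20.7 and 11.2 CPM (log2 change -0.87, SE 0.24, adjusted p = 0.0365, edgeR), and Ptger3, a prostaglandin E2 receptor, from 58.9, 63.0, 81.3 and 64.3 CPM to 51.5, 51.0, 47.5 and 33.3 CPM (log2 change -0.54, SE 0.14, adjusted p = 0.0309, edgeR). Both falls lost their call without the libraries with adrenal transcripts. Of 20 genes of distal sodium transport, 1 fell, Stk39, the kinase that activates the sodium chloride cotransporter, at 58.7 to 64.1 CPM and then 49.6 to 53.9 CPM (log2 change -0.27, SE 0.06, adjusted p = 0.0165, edgeR), which is 5% of the list, near the share of all genes, and the call was lost with the set as covariate. None of 9 water transport genes and none of 14 acid-base genes passed in edgeR, where 4 and 7 had an unadjusted p under 0.05. Aqp2, the vasopressin-regulated water channel, was 411 to 681 CPM and 329 to 635 CPM, a spread within each time point that was wider than the change.

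Markers of single nephron segments moved with the step too, and their part in these results was not tested. The 3 thick ascending limb markers summed to between 4532 and 7627 CPM at ZT20 and between 3491 and 4267 CPM at ZT0, led by Umod, which encodes uromodulin and was called lower. The 3 distal convoluted tubule markers summed to between 1472 and 1839 CPM at ZT20 and between 1951 and 2921 CPM at ZT0, and 1 of them, Calb1, was called higher. Foxi1, the transcription factor of intercalated cells, was 30.4, 27.9, 20.4 and 30.5 CPM at ZT20 and 48.05, 45.1, 47.99 and 55.9 CPM at ZT0 and was called higher, while the other 3 intercalated cell markers did not pass. No marker of proximal tubule, principal cells, endothelium or leukocytes passed.

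Of 17 glucocorticoid-responsive genes, 2 fell and none rose, 11.8% of the list against 5.18% of all genes. Tsc22d3, a direct target of the glucocorticoid receptor, was 54.0, 54.9, 69.2 and 77.8 CPM at ZT20 and 40.6, 40.0, 44.0 and 54.2 CPM at ZT0, with 1 ZT0 mouse inside the ZT20 range (log2 change -0.52, SE 0.14, adjusted p = 0.0357, edgeR). Sult1a1, a sulfotransferase, fell from 134 ± 29.1 to 86.6 ± 6.55 CPM (SD, n = 4 each; edgeR adjusted p = 0.0315). Its call held in 10 of 19 alternatives, and in 1 of the 8 fits that left out 1 library. Of 16 heat shock genes, Dnajb1, a co-chaperone of cytosolic HSP70, rose (edgeR log2 change 0.50, SE 0.12, adjusted p = 0.0232) although its groups overlapped, 6.25% of the list. None of 20 immediate early genes passed in edgeR, where 2 had an unadjusted p under 0.05. Jun was 97.4, 144, 236 and 238 CPM at ZT20 and 70.5, 124, 218 and 266 CPM at ZT0, more than a 2-fold range at either time. Of 3 cold-inducible genes Srsf5, a splicing factor, fell (edgeR log2 change -0.24, SE 0.06, adjusted p = 0.0312), and of 20 cell cycle genes Ccng2, which encodes cyclin G2, fell (log2 change -0.30, SE 0.07, adjusted p = 0.0225, edgeR). The Ccng2 call is 5% of its list, near the share of all genes, and the cold-inducible list holds 3 genes only. Without the libraries with adrenal transcripts the calls of Tsc22d3, Dnajb1, Srsf5 and Ccng2 were lost, and Srsf5 kept its call in 3 of 8 fits that left out 1 library. None of 24 genes of heme and drug metabolism passed, with 7 at an unadjusted p under 0.05, and Cyp2j5 and Gstm1 had log2 changes of 0.03 and 0.03. None of 79 cytosolic ribosomal protein genes and none of 99 respiratory chain genes passed in edgeR, where 6 and 10 had an unadjusted p under 0.05. Of 38 proteasome genes 1 rose, Psmd3, a subunit of its regulatory cap, from 269.6 to 334 CPM in the mean (log2 change 0.31, adjusted p = 0.019, edgeR). That is 2.63% of the list, under the share of all genes.

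**Figure D4:**
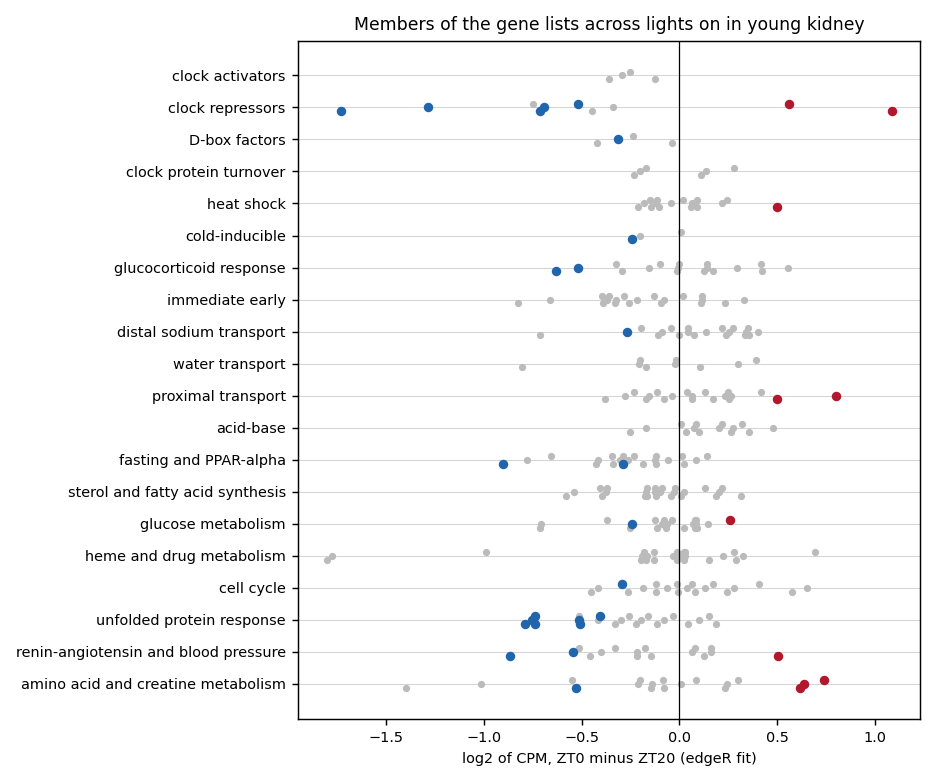
Fitted log2 change, ZT0 minus ZT20, of the tested members of 20 gene lists, without a few genes that are not reported here, 1 point a gene. Red points rose and blue points fell at an adjusted p of at most 0.05 in edgeR, and grey points did not pass. The clock repressors spread furthest among the called genes, the 7 called genes of the unfolded protein response all lie left of 0, and 3 of the 4 called genes of amino acid and creatine metabolism lie right of it.

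Of the 10 largest rises, Nr1d1 has been given, and most of the others were in genes of low abundance, Cish apart. Cym, the protease chymosin, was 1.38, 1.45, 1.14 and 1.40 CPM at ZT20 and 4.24, 5.06, 2.83 and 3.16 CPM at ZT0. Sox9, a transcription factor of tubule development and repair, was 0.970, 1.45, 1.57 and 0.805 CPM and then 3.32, 4.14, 3.39 and 2.81 CPM. Both rose with separate groups, 2.84-fold and 2.84-fold (edgeR adjusted p of 0.00108 and 0.00129). Adm2, a peptide of the adrenomedullin family, rose 2.17-fold to 8.18 ± 1.07 CPM (SD, n = 4, adjusted p = 0.00159, edgeR), and Halr1, a noncoding RNA, 2.23-fold to 8.42 ± 0.970 CPM (SD, n = 4, adjusted p = 0.00397, edgeR). On the common scale the 3 young ZT0 libraries titled CR were 4.84, 3.50 and 4.10 CPM for Adm2, within the ZT20 range of 2.86 to 4.98 CPM. For Cym, Sox9 and Halr1 they lay above every ZT20 mouse. The Adm2 call held in all 19 alternatives. Cish, an inhibitor of cytokine signalling through STAT5, was 49.8, 26.0, 30.5 and 59.1 CPM at ZT20 and 76.6, 83.6, 104 and 96.3 CPM at ZT0. Every ZT0 mouse was higher, but the ZT20 mice differed more than 2-fold among themselves (adjusted p = 0.0455, edgeR), and the call held in 7 of 19 alternatives. H1fx, a linker histone, rose 2.15-fold, Foxs1, a forkhead factor, 2.44-fold, Cpne5, a copine, 2.20-fold and Ccdc65, a protein of motile cilia, 2.15-fold, all from a mean under 2 CPM at ZT20.

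Among the largest falls, Cry1 has been given, and most others were low as well. Ifitm7 was 1.09, 0.743, 1.29 and 3.67 CPM at ZT20 and 0.212, 0.230, 0.0988 and 0.0380 CPM at ZT0, where 1 ZT20 mouse stood high and 2 ZT0 mice had at most 3 counts. It belongs to a family of close copies, so reads may have been shared among them. Bhlha15, a transcription factor of secretory cells, was 1.41, 0.970, 0.714 and 1.70 CPM and then 0.388, 0.362, 0.165 and 0.456 CPM, without overlap (log2 change -1.80, SE 0.34, adjusted p = 0.00453, edgeR). Plk5, a kinase-like protein, fell 2.85-fold (log2 change -1.51, SE 0.23, adjusted p = 0.000725, edgeR), and Pde10a, a cyclic nucleotide phosphodiesterase, 2.65-fold (log2 change -1.41, SE 0.22, adjusted p = 0.00132, edgeR). BC018473 had the most counts of these, at 37.0, 39.4, 24.5 and 41.2 CPM and then 10.7, 15.5, 10.4 and 15.1 CPM (log2 change -1.46, SE 0.17, adjusted p = 5.32e-05, edgeR). Lingo4, a leucine-rich repeat protein, was 1.69, 2.36, 0.943 and 1.25 CPM at ZT20 and 0.494, 0.526, 0.692 and 0.494 CPM at ZT0 (log2 change -1.49, SE 0.37, adjusted p = 0.0255, edgeR). Lca5l and Ccdc182 fell 3.09-fold and 2.62-fold.

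The step was set against the other change of light, from ZT8 to ZT12, which shares no library with it. Across lights off 1251 genes were called (7.69%), 671 higher (4.12%) and 580 lower (3.57%). Of the 385 genes that rose at lights on, 89 (23.1%) were called lower at lights off and 4 higher, and of the 457 that fell at lights on, 101 (22.1%) were called higher at lights off and 9 lower. The difference between the steps passed edgeR's test in 2296 of all genes (14.1%), in 300 of the 385 and in 332 of the 457. The 385 and 457 genes were chosen for their change at lights on, which is part of that difference. Their counts are therefore a description only and cannot be set against the 14.1%. Cry1 had the smallest p, falling at lights on and rising by 2.34 on the log2 scale at lights off (difference -4.07, SE 0.11, adjusted p = 1.6e-16, edgeR). Per2 had the same signs (difference -2.22, SE 0.13, adjusted p = 4.79e-10). Nr1d1 rose at lights on and fell by 1.56 at lights off (difference 2.65, SE 0.16, adjusted p = 8.02e-10). Fabp7, a fatty acid binding protein, was 9.01, 6.59, 7.17 and 6.79 CPM at ZT20 and 15.7, 12.8, 16.01 and 15.8 CPM at ZT0 and went from 7.31 to 2.65 CPM between ZT8 and ZT12 (difference 2.49, SE 0.20, adjusted p = 8.16e-08, edgeR). Per3 and Cry2 fell at lights on, and at lights off had log2 changes of -0.10 and 0.06 that did not pass (adjusted p of 0.581 and 0.575). Bhlhe41 fell at both steps, by 0.52 and 0.71 on the log2 scale, and the steps were not told apart (adjusted p = 0.525).

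**Figure D5:**
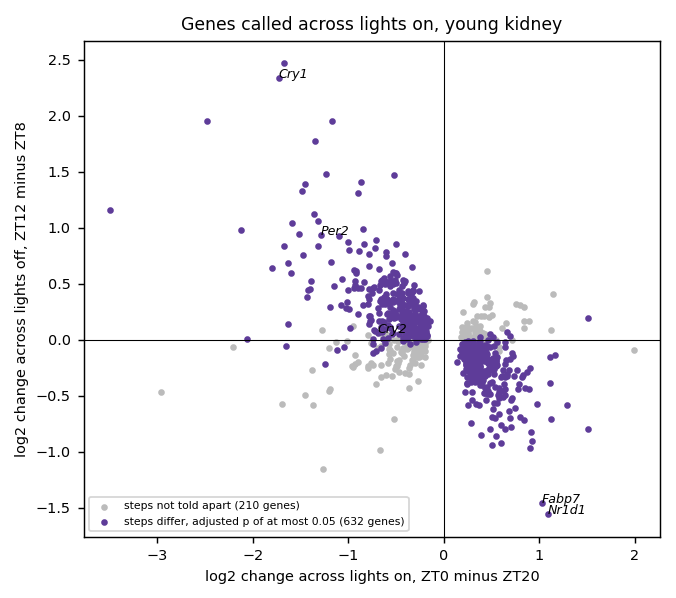
Log2 change across lights on (x axis) and across lights off (y axis) for the 842 genes called across lights on, 1 point a gene. Purple points, 300 genes that rose and 332 that fell, have steps that differ at an adjusted p of at most 0.05 in edgeR. The genes were chosen by the change on the x axis, which is part of that difference, so these counts are a description only. Most points lie at the upper left and the lower right, with Cry1 furthest of the labelled genes at the upper left and Nr1d1 and Fabp7 at the lower right.

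In the whole day the step stood between larger and smaller ones. The young mice had 722 genes called from ZT0 to ZT4 (4.44%), 804 from ZT4 to ZT8 (4.94%), 266 from ZT12 to ZT16 (1.64%) and 143 from ZT16 to ZT20 (0.879%), and the first and the last of these share mice with the step from ZT20 to ZT0. The genes that rose were chosen for a higher level at ZT0 than at ZT20, so their place in the day is a description only. Of the 385, 201 (52.2%) had their highest mean at ZT0, against 13.8% of all genes tested, 98 at ZT4 and 80 at ZT8. Of the 457 that fell, 250 (54.7%) had theirs at ZT20, against 19.1% of all genes. Cry1 held its level from ZT16 to ZT20, 30.1 and 30.0 CPM, before the fall, and went on to 2.54 CPM at ZT4. Nr1d1 went from 7.89 CPM at ZT20 to 16.8 CPM at ZT0 and 103 CPM at ZT4. Hspa5 was highest of the 6 time points at ZT20 and stood at 435 CPM at ZT0, 597 CPM at ZT4 and 319 CPM at ZT8.

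The same step in nephritic kidney, with 3 and 4 mice, gave 145 called genes of 17339 (0.836%), 71 higher (0.409%) and 74 lower (0.427%). Of the 385 genes that rose in young mice, 75.1% had a positive log2 change in nephritic mice and 8 were called higher and none lower, by edgeR, and of the 457 that fell, 73.5% had a negative one, with 22 called lower and 9 called higher. Of all genes tested, 50.7% had a positive and 49.3% a negative nephritic change. Cry1, Cry2 and Nr1d1 were among the genes called in the same direction, with nephritic log2 changes of -1.33, -1.19 and 2.60. The step differed between young and nephritic mice in 17 genes (0.098%), of which 11 had fallen in young mice and 1, Sall2, a zinc finger protein, had risen. The 11 were the 7 folding genes above, Syvn1, the ubiquitin ligase of ER-associated degradation, Alg12, an enzyme of N-glycan assembly, Tmem39a and Pde10a, and all 11 had a log2 change above 0 in nephritic mice. Syvn1 had log2 changes of -0.43 in young and 0.91 in nephritic mice. Syvn1, Alg12, Tmem39a and Sall2 are named after their values were seen. Leaving out 1 library at a time gave 10 to 32 such genes, 10 without young ZT20 replicate 2 and 32 without nephritic ZT0 replicate 1, and the tests that called none are given with the folding genes.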

How the data were processed

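Kidney RNA was measured by RNASeq. The authors aligned reads to the mouse genome and deposited counts of uniquely aligned reads per gene symbol, with no normalization. The methods name a Burrows-Wheeler aligner, and the submitters' processing notes name HISAT and mm10. Of 24538 symbols, 15 had empty cells and were left out. Genes with at least 100 counts over the 24 young libraries, 4 at each of 6 time points, were fitted with edgeR 4.0.16 (R 4.3.3; TMM, quasi-likelihood F test, Benjamini-Hochberg), with ZT0 minus ZT20 as the contrast. The lights-off comparison used the same fit, and the nephritic one a joint fit of 24 young and 22 nephritic libraries. Values are CPM after TMM, and ± gives the SD. Members and gene lists were chosen with earlier results of these data known. Named genes were all clock genes and the 10 largest rises and falls with separate groups and a mean of at least 1 CPM (39 Gm and Rik symbols skipped). From each other list came up to 4 called genes with the largest log2 change, or those of highest mean CPM where none was called. By smallest p, 5 called genes were added for lights off and 3 for nephritis. Genes outside this rule, such as Creld2, Pdia4, Psmd3 and the marker genes, were named with values seen. A few genes of the lists and of this rule count in the totals and are not reported here by name. Mice of a time point were labelled as separate samples, and replicate pairs differed by more than counting noise. Alternatives used DESeq2 1.42.0, limma 3.58.1, other scalings, filters and library sets. On simulated counts for ZT0 against ZT20 (16198 genes), 63 of 100 genes changed 1.5-fold and 91 of 100 changed 2-fold were recovered. The changed genes had a mean of at least 1 CPM, and 14 of 15998 unchanged genes were called. Promoters came from RefSeq (GRCm38.p6) and gene positions from GENCODE.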

Additional observations from a re-analysis of the deposited data

Results flagged for a closer look

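Of 131 groups of 4 mice looked at for the named genes, 12 had a mouse whose distance from its nearest neighbour was above Dixon's critical value for 4 values, and chance flags about 1 group in 20. At ZT20, replicate 3, the library with the most adrenal transcript, was the high one for Clock (98.7 CPM), Bhlhe41 (5.57 CPM), Ciart (1.54 CPM) and Slc7a7 (227.5 CPM), and replicate 2 was the low one for Npas2 (24.0 CPM). At ZT0, replicate 4 was the high one for Slc34a3 (110.1 CPM), Slc3a2 (415 CPM) and Cyp2j5 (1051 CPM). The other mice at ZT0 were replicate 1, high for Cry2 (24.5 CPM), replicate 2, low for Sult1a1 (76.8 CPM) and Fabp7 (12.8 CPM), and replicate 3, low for Agtrap (101 CPM).

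The step from ZT20 to ZT0 differed between young and nephritic mice for 6 of the named genes by edgeR's interaction test. The young log2 change minus the nephritic one was -2.16 for Manf, -1.86 for Hspa5, -1.67 for Hyou1, -1.62 for Pde10a, -1.32 for Dnajb9 and -0.95 for Xbp1. All 6 were lower at ZT0 than at ZT20 in young mice and had a log2 change above 0 in nephritic mice. The young and nephritic libraries also differ in age, and age and disease cannot be told apart here.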

How the results depend on the processing

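Between ZT20 and ZT0, 842 genes were called (385 higher, 457 lower). The counts were 1392 (666 and 726) with DESeq2, 97 (45 and 52) with the 8 libraries fitted alone, 559 (294 lower) with all young libraries and the set as covariate, 56 (17 and 39) when tested against a fold of 1.2, and 284 (114 and 170) without the libraries with adrenal transcripts, which was chosen after seeing the data. Leaving out 1 library gave 413 to 863 genes (192 to 442 higher, 221 to 502 lower), and 1621 to 2828 for lights on against lights off. The young and nephritic steps differed in 17 genes, in 68 with DESeq2, in 0 with the time points alone or with the set as covariate, and in 10 to 32 leaving out 1 library, with 11 without nephritic ZT20 replicate 2 or 3. With DESeq2 the steps had 1113 genes from ZT0 to ZT4, 458 from ZT12 to ZT16 and 678 from ZT16 to ZT20. Other size factors, limma and the other filters on low counts kept each of these counts of genes within 1.5 times, while with no filter the glucose list lost its 1 higher gene, Pdk2, and Cish and Ppargc1a lost their calls. No value for a named gene or count reversed. Of 55 named genes called, 17 kept their call in all 19 alternatives, among them Cry1, Cry2, Per2, Per3, Nr1d1, Dnajb9 and Slc3a2, and 37 kept it without the libraries with adrenal transcripts. No paired analysis was possible because the labels number no replicates. The cause of these shifts was not tested. At this depth, 3 counts stand for 0.0896 to 0.110 CPM, and the genes near that level, such as Ifitm7, are imprecise.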
